A study of Bombyx mori with 2 samples.

Results

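The silkworm wing bud transcriptomes held 3462 loci that were assembled without an intron and lay wholly inside an intron of a spliced locus. RNA had been sequenced from the hindwing bud of the third thoracic segment and from the forewing bud of the second thoracic segment of *Bombyx mori*, both from larvae of the Daizo race in the fourth instar. No genetic change or treatment was named for either, and each of the 2 libraries came from total RNA of 80 pooled buds. With 1 library per wing bud, a difference below describes these libraries and has no replicate check and no p-value. The study compared the buds to ask which genes differ under the Hox protein Ultrabithorax (Ubx), known in insects for setting hindwing identity apart from that of the forewing. The assemblies number their loci and carry no gene names, so neither Ubx nor any marker of wing tissue could be read here.

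Transcripts of both assemblies with exons overlapping by 1 base or more on a strand formed 1 locus, which gave 25992 loci, and unstranded transcripts joined either strand. The loci described here, called intronic loci, had single-exon transcripts alone, spanned at least 300 bases, and were contained in an intron of a multi-exon transcript of either assembly. Of the 13071 unspliced loci of at least 300 bases, 3462 met this rule and the other 9609 lay outside the span of every spliced locus. The spliced locus around an intronic locus is called its host, and where several introns contained it the shortest gave the host. Unspliced transcripts carried no strand, so whether an intronic locus ran with or against its host is unknown.

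Introns are cut out of the precursor RNA while or soon after it is copied from the gene. RNA from inside an intron can therefore come from precursors that are not yet spliced, and equally from a separate small gene, a copy of a mobile element, an exon whose splice junctions were not covered by reads, or short RNA made at an enhancer. In the *Drosophila* wing disc, well known enhancers of the wing gene *vestigial* lie in its introns. Which of these kinds any intronic locus belongs to was not tested. Positions are given as deposited, counted from 1. The build they refer to was not given in the sources used here, and overlap with annotated genes was not analysed here.

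Intronic loci were found far more often in the hindwing assembly than in the forewing assembly. The hindwing library held 2955 and the forewing library 1445, whereas the estimated depth was 43528000 fragments in hindwing and 37192500 in forewing, a ratio of 1.17. All transcripts numbered 32946 in hindwing and 27876 in forewing. Of the fragments counted in assembled loci, intronic loci held 0.957% in hindwing and 0.744% in forewing. The part of depth in these differences was not tested, and in bulk libraries fewer cells with a transcript and less of it per cell cannot be told apart.

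Their level was measured as fragments per 1000000 fragments (FPM), the midpoint of the deposited confidence interval of the FPKM (fragments per kilobase per 1000000 fragments) times the transcript length in kilobases. It counts the fragments of the stretch that was assembled. Most intronic loci were scarce. The median was 0.586 FPM in hindwing, with quartiles of 0.414 and 1.26, and 0.793 FPM in forewing, with quartiles of 0.497 and 2.06. These medians correspond to about 25.5 and 29.5 fragments, and the lowest value rested on about 11.5 fragments in both libraries. Below 1 FPM were 68.7% of the 2955 hindwing loci (95% Wilson interval 67.0 to 70.3%) and 58.3% of the 1445 forewing loci (55.8 to 60.9%). At 10 FPM or more there were 103 loci in hindwing and 95 in forewing. Unspliced loci outside spliced loci had higher medians, 0.965 FPM in hindwing and 1.48 FPM in forewing.

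**Figure D1:**
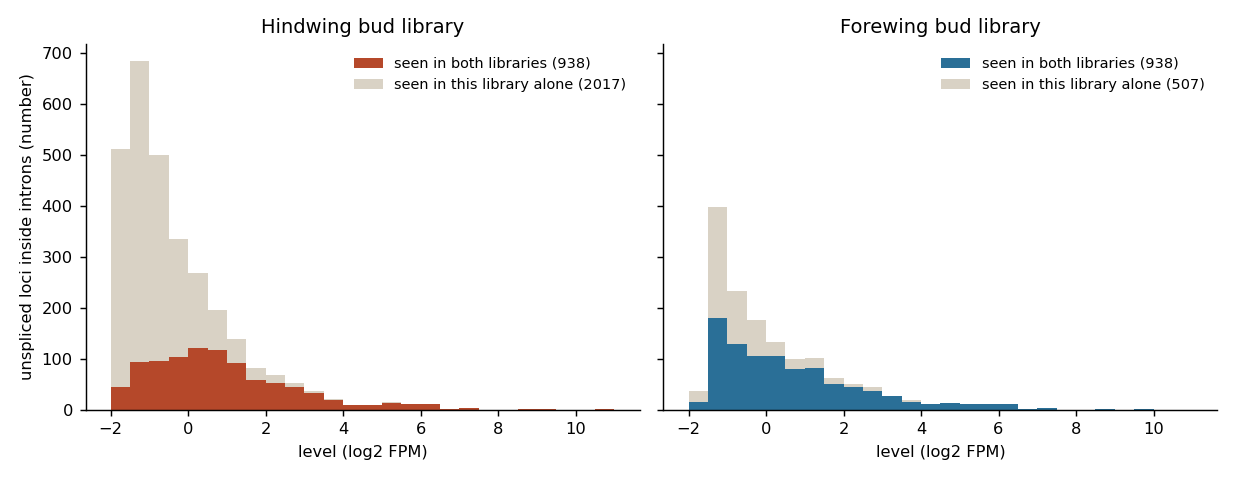
Number of intronic loci (vertical axis) by level in log2 FPM (horizontal axis) in the hindwing library (left) and the forewing library (right), with coloured bars for loci seen in both libraries and pale bars for loci seen in that library alone. The pale bars, 2017 loci in hindwing and 507 in forewing, lie mostly at the low end, while nearly all loci at the high end were seen in both libraries.

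Few intronic loci were assembled in both wing buds. Both libraries held 938 of the 3462 (27.1%, 95% Wilson interval 25.6 to 28.6%), whereas 71.1% of all 25992 loci were assembled in both. Hindwing alone held 2017 (58.3%), against 22.3% of all loci, and forewing alone held 507 (14.6%), against 6.63% of all loci. The share seen in both was 62.1% (61.1 to 63.1%) for the unspliced loci outside spliced loci and 81.4% (74.6 to 86.7%) for the 156 spliced loci that lay inside an intron. Loci of a library are not independent replicates, so these intervals cover counting error only and no test of the difference was made.

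Abundant loci were more often seen in the other library than scarce ones, and at like levels the share was lower inside introns than outside them. Of the hindwing intronic loci below 0.5 FPM, 11.6% were also assembled in forewing, of those from 1 to 2 FPM 51.3%, and of those at 5 FPM or more 89.8% (84.8 to 93.3%). The same shares for hindwing unspliced loci outside spliced loci were 23.2%, 88.8% and 99.2% (98.7 to 99.5%). Of the forewing intronic loci, 45.0% below 0.5 FPM and 94.1% at 5 FPM or more were also assembled in hindwing. Among loci seen in 1 library alone, 326 in hindwing and 94 in forewing reached 1 FPM. A locus missing from an assembly is not shown to lack RNA there, since the assembler lists only what it could build.

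The introns themselves were not always assembled in the same library as the RNA inside them. Of the 2017 loci seen in hindwing alone, 634 (31.4%, 29.4 to 33.5%) lay inside introns that the forewing assembly alone held, and 109 inside introns of the hindwing assembly alone. Of the 507 seen in forewing alone, 139 (27.4%) lay inside introns of the hindwing assembly alone and 32 inside introns of the forewing assembly alone. Introns held by 1 assembly made up 7.17% of all 62587 introns for hindwing and 8.25% for forewing. Most of those are much shorter than the introns around intronic loci. Among introns of at least 20000 bases, the hindwing assembly alone held 190, the forewing assembly alone 199, and both held 1302. Loci seen in 1 library alone were thus more often inside an intron that this library did not hold than inside one it alone held.

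The 2 loci with the highest level among those seen in hindwing alone lay on nscaf2853 and nscaf2216. The first, from 4808913 to 4810347 in intron 5 of 8, had 50.3 FPM in hindwing (deposited interval 47.5 to 53.0) and no forewing transcript. Its host had close levels in both libraries, with an FPKM midpoint of 256 in hindwing and 286 in forewing, and its intron of 5912 bases was assembled in both. The second, from 2148304 to 2157288, had 35.9 FPM in hindwing (33.7 to 38.0) over 8985 bases, in a first intron of 38548 bases that the forewing assembly alone held. Both rested on many fragments, about 2188.5 and 1561.5.

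The 2 loci with the highest level among those seen in forewing alone had lower levels than these. On nscaf2822, the one that spans 1372081 to 1373293 had 12.0 FPM in forewing (10.6 to 13.5), in an intron of 36867 bases held by the forewing assembly alone. On nscaf2770, the one that spans 1160779 to 1165367 had 12.0 FPM in forewing (10.6 to 13.3), in intron 3 of 4, which both assemblies held. The host on nscaf2770 had an FPKM midpoint of 12.2 in hindwing and 10.1 in forewing, so that its spliced transcripts were at close levels while the intronic locus was assembled in 1 library.

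Long introns carried most of the intronic loci. The host intron had a median of 15258.5 bases over the 3462 loci, against 749 bases over all 62587 introns. For loci seen in hindwing this median was 16290 bases, and for those seen in forewing 9887 bases. In the counts by intron, each locus was credited only to the shortest intron containing it, and not to a longer intron around that one. Counted so, 0.754% of introns from 500 to 1000 bases held an intronic locus (95% Wilson interval 0.640 to 0.889%). The share was 7.19% (6.56 to 7.88%) from 2000 to 5000 bases and 31.1% (27.2 to 35.4%) from 50000 bases upward. These are lower bounds on the share of introns with a locus inside. Per 1000000 intron bases, there were 29.5 loci in introns from 2000 to 5000 bases and 18.1 in introns of at least 50000 bases. A long intron adds all its bases to this count, whereas loci in shorter introns inside it are credited to those shorter introns. These values therefore do not show whether the longest introns were less densely filled. Introns under 300 bases cannot contain a locus of this length.

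**Figure D2:**
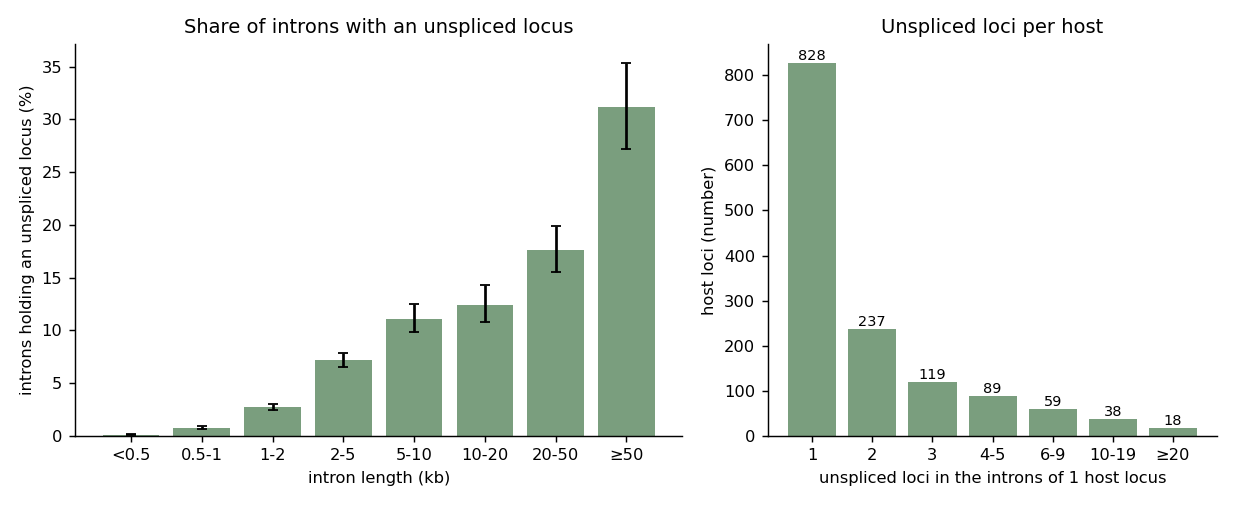
Left, percent of introns that held at least 1 intronic locus (vertical axis) by intron length in kilobases (horizontal axis), with 95% Wilson intervals over introns as bars. Each locus was credited only to the shortest intron containing it. Right, number of host loci (vertical axis) by how many intronic loci each held. The share climbs to 31.1% in the longest introns, and 828 of the 1388 hosts held a single intronic locus.

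By the shortest intron around each, the intronic loci fell in 1388 hosts, 11.7% of the 11817 spliced loci, and in 1693 introns. A single intronic locus was found in 828 hosts, 2 in 237 hosts, and from 3 to 9 in 267 hosts. The remaining 56 hosts held at least 10 each and together 994 loci, 28.7% of the total. In the hindwing library, 1194 hosts held an intronic locus and 47 of them at least 10. In the forewing library, the numbers were 816 and 12. In hosts with at least 10 loci, 15.5% of the loci (13.4 to 17.9%) were seen in both libraries, against 31.8% in the other hosts.

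The loci covered a small part of long introns and most of some short ones. They had a median span of 822 bases (quartiles 543 and 1276, highest 16137), somewhat shorter than the 1008 bases of unspliced loci outside spliced loci. The median host intron was covered over 30.2% of its length. This median depended on the settings. It was 22.6% for loci at least 100 bases from both intron ends and 27.7% for introns held by both assemblies. With a least locus length of 150 bases it was 27.4%, and with 600 bases 34.4%. For introns of at most 50000 bases it was 34.4%. The hindwing transcripts alone covered a median of 27.8% of the 1434 introns they fell in, and the forewing transcripts 20.4% of 917 introns. In introns from 500 to 1000 bases the median cover was 74.0% and in those of at least 50000 bases 2.40%. Only introns with a locus of at least 300 bases enter, so a large cover of short introns is in part set by this limit. At least 90% was covered in 83 introns and under 10% in 371. All these covers count only the loci credited to an intron as the shortest around them. They are too low for an intron with shorter introns and their loci inside it. Over all bases that lay in an intron, 2.62% were inside an intronic locus. Of the loci, 316 began within 100 bases of the 5′ end of the intron, 280 ended within 100 bases of its 3′ end, and 108 did both.

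By this count, the 3 most fully covered introns of at least 1000 bases were filled by 1 intronic locus each, which ended at or a few bases short of both exons. On nscaf3058, the intron from 4695820 to 4699086 was covered over 3266 of its 3267 bases by a locus with 13.2 FPM in hindwing (11.8 to 14.6) and no forewing transcript, although both assemblies held the intron. On nscaf2930, the intron from 2346561 to 2350336 was covered over 99.9% by a locus with 12.3 FPM in hindwing (11.2 to 13.5) and none in forewing, and the hindwing assembly alone held that intron. On nscaf2902, the intron from 19073 to 22281 was covered over 99.7% by a locus seen in both, with 5.55 FPM in hindwing (4.69 to 6.41) and 3.79 FPM in forewing (3.07 to 4.52). Per kilobase, these loci had 0.0610, 0.158 and 0.268 of the level of their hosts in hindwing.

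The 3 hosts with the most intronic loci had very long introns, of at least 113824 bases for the fullest one in each, and the hindwing assembly held many more of the loci. The host on the plus strand of nscaf2797 from 33312 to 435474 held 55, of which 51 were seen in hindwing and 13 in forewing. Of these, 49 lay in an intron from 204187 to 434719 that the forewing assembly alone held, in a transcript of 3 exons. The hindwing levels ran from 0.276 to 14.5 FPM with a median of 0.391, and the forewing levels from 0.309 to 14.6 FPM with a median of 0.417. The host itself had 3.71 FPM in hindwing (2.50 to 4.92) and 3.76 FPM in forewing (2.72 to 4.80), intervals that overlap. By the sum of FPKM midpoints of its transcripts, the host had 9.29 in hindwing and 4.62 in forewing, so that its FPM was alike and this sum was not.

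The other two of these hosts showed the same lean. The host on the minus strand of nscaf3034 from 2485610 to 2846123 held 41 loci, 39 seen in hindwing and 3 in forewing, and 31 of them lay in intron 2 of 11. Both assemblies held that intron of 148854 bases. Among these 31 loci, those of hindwing covered 16.7% of it and those of forewing 0.276%. The host had 11.1 FPM in hindwing (9.25 to 12.9) and 10.02 FPM in forewing (8.71 to 11.3), with FPKM midpoints summing to 9.80 in hindwing and 5.35 in forewing. The host on the plus strand of nscaf2943 from 2986634 to 3162725 held 38 loci, all seen in hindwing and 7 of them in forewing. Its level was 12.9 FPM in hindwing (10.5 to 15.4) and 10.2 FPM in forewing (6.83 to 13.5), again with overlapping intervals, whereas its FPKM midpoints summed to 7.63 in hindwing and 13.6 in forewing. By this sum, the hosts on nscaf2797 and nscaf3034 were thus higher in hindwing and the one on nscaf2943 lower. The sum also depends on the number and length of the transcripts that each assembly built. The part of this in these host differences was not tested.

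**Figure D3:**
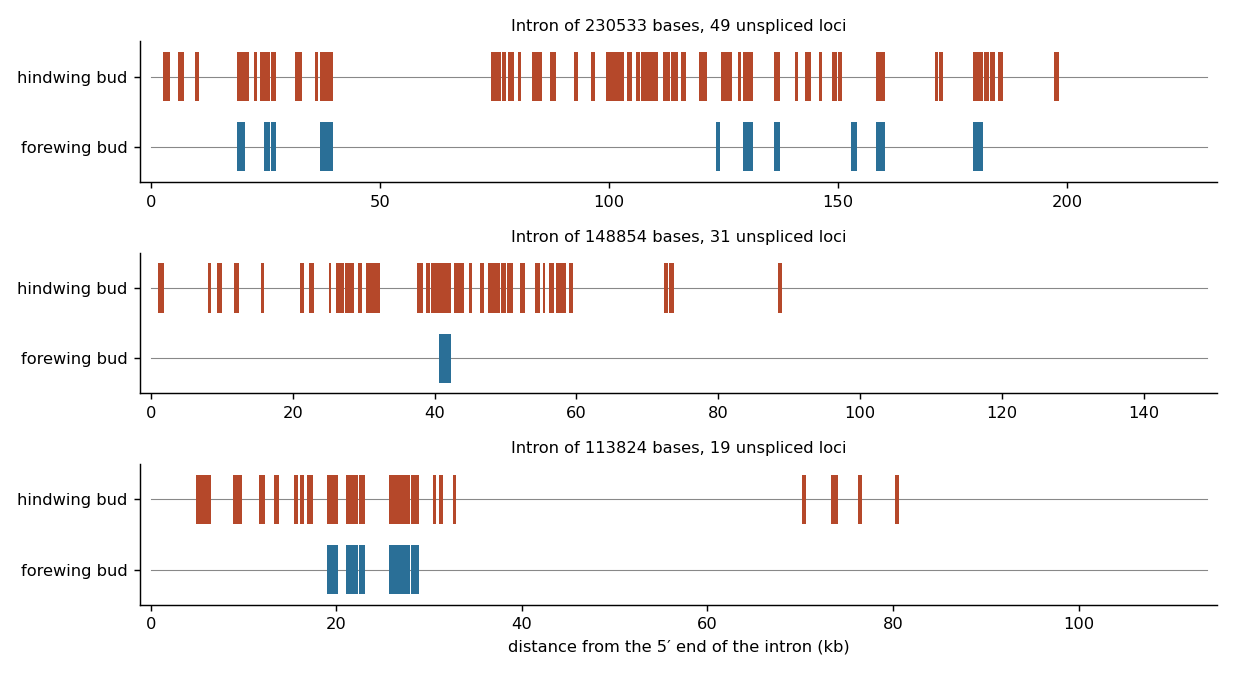
Intronic loci (blocks) along the intron with the most of them in each of the 3 hosts, by distance in kilobases from the 5′ end of the intron, with the hindwing library above the forewing library. Each block spans the joined locus, also where a library assembled part of it, and the hindwing rows carry more blocks in all 3 introns, for instance 31 loci in the intron of 148854 bases.

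Intronic loci lay more often toward the 5′ end of the intron. Each was placed by the bases free on its 5′ side as a share of all bases free in the intron, so that even placement would fill 3 equal parts alike. The 5′ part held 1385 loci (40.0%, 95% Wilson interval 38.4 to 41.6%), the middle part 1083 (31.3%) and the 3′ part 994 (28.7%, 27.2 to 30.2%). The 5′ part held 40.4% of the loci seen in hindwing (38.7 to 42.2%) and 36.8% of those seen in forewing (34.4 to 39.3%). In introns under 5000 bases the ends were alike, with 36.3% in the 5′ part and 35.2% in the 3′ part. In introns of at least 50000 bases the 5′ part held 48.5% (45.1 to 51.9%) and the 3′ part 18.3% (15.8 to 21.1%). Loci of 1 intron are not independent, and without the 56 hosts of at least 10 loci the 5′ part held 37.9% (36.0 to 39.8%). It held 37.1% when the longest containing intron was used in place of the shortest, and 37.4% in introns of at most 50000 bases. For loci at least 100 bases from both ends of the intron it held 38.2%.

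Counted by the shortest intron, first and internal introns had close numbers of intronic loci per intron base. First introns held 31.1% of the intronic loci and made up 17.8% of the introns but 37.2% of the summed bases of all introns. Per 1000000 of these bases, there were 17.0 loci in first introns and 17.4 in internal ones. Last introns held 35.8, and introns that were the sole intron of their transcript held 33.5. Overlapping introns each add their bases here, whereas a locus counts once. These values therefore do not rank the places by density. The 5′ part of the intron held 43.7% of the loci in first introns (40.7 to 46.7%) and 32.4% of those in last introns (29.0 to 36.1%).

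The level of a locus, by contrast, changed little along the intron. Per kilobase of transcript, the median level of hindwing loci was 0.823 in the first of 10 equal parts and 1.014 in the last, as FPKM midpoint, and that of forewing loci 1.11 and 1.19. Neighbouring loci of the same intron had like levels. Among 1470 neighbouring pairs seen in hindwing, the correlation of log2 level per kilobase was 0.758 and the median pair differed 1.25-fold. Among 449 pairs seen in forewing, it was 0.729 and 1.30-fold. The pairs share their library and their host, so this is a description. Neighbours were separated by a median of 602 bases.

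Set against their hosts, intronic loci were mostly far below the level of the spliced transcripts. The level per kilobase of an intronic locus had a median of 0.114 of the host level in hindwing (quartiles 0.0588 and 0.208, 2902 pairs) and 0.151 in forewing (0.0847 and 0.275, 1406 pairs), where the host level is the sum of the FPKM midpoints of its transcripts. Against the most abundant host transcript that has the intron, the medians were 0.295 in hindwing and 0.329 in forewing. Among the 910 loci that were seen with their host in both libraries, the medians were 0.175 in hindwing and 0.174 in forewing, and the hindwing ratio was the higher one for 462 of them. The gap between the libraries over all pairs was thus not seen in the loci they shared.

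Intronic loci were higher in highly expressed hosts, but by less than the hosts were. The correlation of log2 level per kilobase with the host level was 0.335 in hindwing (Spearman 0.360) and 0.348 in forewing (Spearman 0.420), across loci that share libraries and hosts. Against the most abundant host transcript with the intron it was 0.565 in hindwing and 0.522 in forewing. In hindwing, hosts of 2 to 5 FPKM had intronic loci with a median of 0.594, hosts of 10 to 20 FPKM a median of 1.17, and hosts of at least 50 FPKM a median of 2.05. In forewing these medians were 0.746, 1.78 and 3.39. The ratio to the host therefore fell with host level, to a median of 0.0284 in hindwing and 0.0582 in forewing for hosts of at least 50 FPKM. No intronic locus rested on fewer than about 11.5 fragments, so low ratios could be seen only in abundant hosts.

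**Figure D4:**
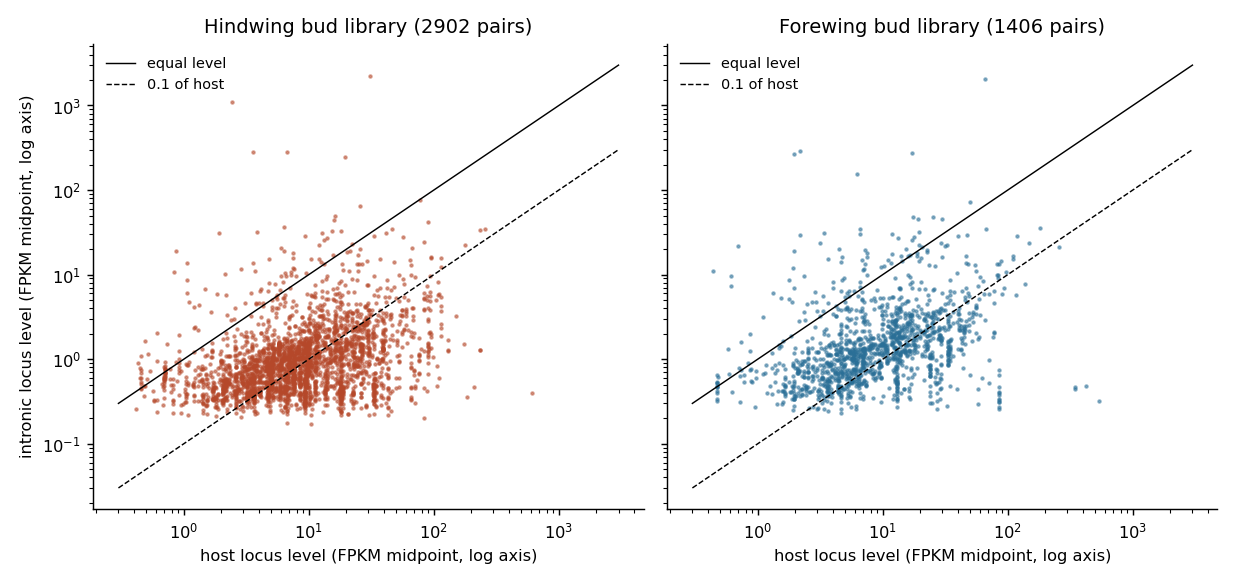
Level per kilobase of each intronic locus (vertical axis) against that of its host (horizontal axis), both as FPKM midpoint on log axes, in hindwing (left, 2902 pairs) and forewing (right, 1406 pairs). The solid line marks equal levels and the dashed line 0.1 of the host level, and 103 hindwing and 101 forewing loci lie on or above the solid line.

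The ratio was lower where the library itself did not hold the surrounding intron. In hindwing, the median was 0.0514 over 732 loci inside introns of the forewing assembly alone, and 0.134 over 2170 loci inside an intron that the hindwing assembly held. In forewing, it was 0.0664 over 205 loci inside introns of the hindwing assembly alone, and 0.157 over 1201 loci inside its own introns. Cufflinks by default leaves out intronic fragments whose coverage is low beside that of the spliced transcript, and the setting used was not given in the sources used here. The part of this filter in the ratios was not tested.

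Hosts were less abundant than other spliced loci. A spliced locus counts as a host only where an intronic locus was assembled, and the part of the Cufflinks filter in this difference was not tested. The median host had an FPKM midpoint of 8.86 in hindwing and 9.37 in forewing, and spliced loci that hosted none had 12.1 and 12.2. When spliced loci were grouped by their longest intron, hosts had the lower median in both libraries in each of the 7 groups from 500 bases upward. For loci with a longest intron of at least 50000 bases, 44.8% were hosts, with a median of 7.68 in hindwing against 11.0 for the others, and 7.22 in forewing against 10.7.

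A minority of intronic loci exceeded their hosts, 3.55% in hindwing (95% Wilson interval 2.94 to 4.29%) and 7.18% in forewing (5.95 to 8.65%). Ranked by the mean FPM of both libraries, the most abundant locus of all lay on nscaf2136 from 4891457 to 4892170, in intron 3 of 9 of its host, an intron that the hindwing assembly alone held. It had 1584 FPM in hindwing (1566 to 1602) and 1010 FPM in forewing (995 to 1024), and was assembled over 714 bases in hindwing and 497 bases in forewing. Per kilobase, with 2218 in hindwing and 2031 in forewing, it stood 72.0-fold above its host in hindwing and 31.1-fold in forewing. The next was on nscaf3072 from 1294422 to 1294901, with 518 FPM in hindwing (509 to 527) and 417 FPM in forewing (408 to 426). Its host, whose intron of 69948 bases was assembled in hindwing alone, had an FPKM midpoint of 2.41 there and no forewing transcript.

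The third locus in this order, which was above the one on nscaf3072 in forewing, had the largest excess over its host among hosts with an FPKM midpoint of at least 1 in both libraries. It lay on nscaf2828 from 5429798 to 5431824 in an intron of 5630 bases that both assemblies held, and had 488 FPM in hindwing (479 to 497) and 424 FPM in forewing (414 to 433). Its level per kilobase was 79.9-fold that of its host in hindwing and 134-fold in forewing. A short locus on nscaf1681 from 4953612 to 4953948, in the first intron of a host with 32 introns, had 51.7 FPM in hindwing (48.9 to 54.5) and 52.8 FPM in forewing (49.6 to 56.1), intervals that overlap. Its transcript was assembled over 184 bases in hindwing and 337 bases in forewing, and per kilobase it stood 42.4-fold above its host in hindwing and 25.0-fold in forewing. The 3 most abundant loci took 27.8% of all FPM of intronic loci in hindwing and 25.5% in forewing.

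Intronic loci seen in both wing buds had similar levels in the 2 libraries. Over the 938 loci, the correlation of log2 FPM was 0.930, the median locus differed 1.28-fold, and the median log2 ratio of hindwing over forewing was 0.12, against 0.03 over all loci seen in both. At log2((hindwing + 0.1)/(forewing + 0.1)) of at least 1 in size, 89 loci were higher in hindwing, whereas 19 were lower there than in forewing. That is 9.49% (95% Wilson interval 7.77 to 11.5%) and 2.03% (1.30 to 3.14%), whereas of all 18473 loci seen in both, 3.16% were higher in hindwing and 2.38% in forewing. The deposited intervals were apart for 79 of the 89 and for 16 of the 19.

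These 2-fold differences went with how long a stretch each assembly had joined. Of the 89 loci higher in hindwing, 87 had the longer transcript in hindwing, with a median of 1407 bases in hindwing and 452 in forewing. All 19 loci higher in forewing had the longer transcript there, with a median of 349 bases in hindwing and 865 in forewing. Among the 644 loci whose assembled lengths agreed within 1.5 times, 7 had a 2-fold higher level in hindwing (1.09%, 0.527 to 2.23%) and 5 in forewing (0.776%, 0.332 to 1.80%). FPM is itself a product with assembled length, so keeping loci of like length removes differences in FPM by construction, and the fall in these counts shows nothing about where the lean toward hindwing comes from. Over all 14068 loci of like length these shares were 1.29% and 1.34%, close to those of the intronic loci of like length. By level per kilobase of assembled transcript, 21 of the 938 were 2-fold higher in hindwing and 25 in forewing, so the lean toward hindwing was not seen on that scale. The limit of 1.5 times and the scale per kilobase were chosen after the data were seen.

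**Figure D5:**
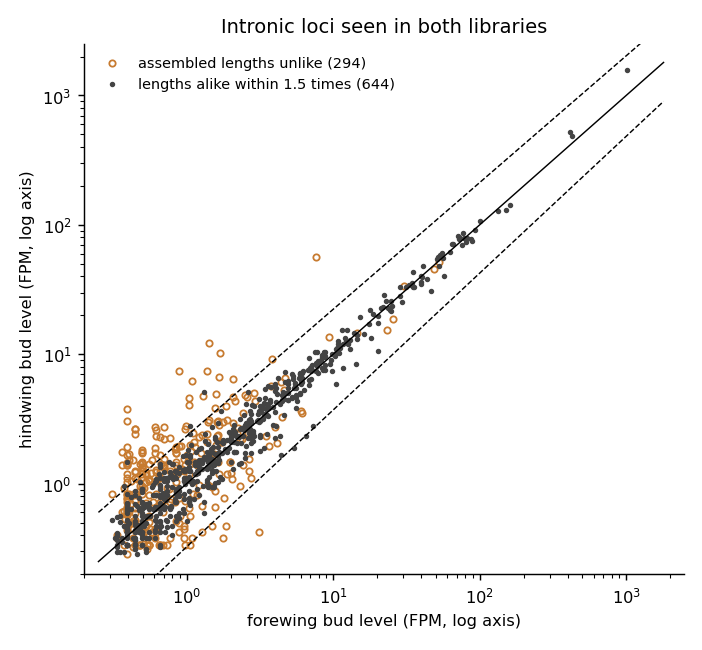
Level of the 938 intronic loci seen in both libraries, hindwing (vertical axis) against forewing (horizontal axis), in FPM on log axes, with filled points for the 644 loci of like assembled length and open circles for the others. The solid line marks equal levels and the dashed lines 2-fold differences after adding 0.1 FPM to both, and open circles make up most of the points beyond the dashed lines.

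The loci with the largest ratios show this difference in length. On nscaf2819, the locus from 78762 to 80037 in a first intron of 2041 bases had 12.3 FPM in hindwing (11.0 to 13.6) over 1276 assembled bases and 1.41 FPM in forewing (0.860 to 1.96) over 245 bases. On nscaf3063, the one that spans 2064986 to 2068332 had 3.76 FPM in hindwing (3.10 to 4.41) over 3347 bases and 0.390 FPM in forewing (0.134 to 0.645) over 227 bases. Per kilobase, the locus on nscaf2819 stood at 9.62 in hindwing and 5.76 in forewing, and that on nscaf3063 at 1.12 in hindwing and 1.72 in forewing, so the second turned round on that scale. The largest ratios toward forewing were on nscaf1987 and nscaf2953. The one on nscaf1987, which spans 32442 to 33416, had 0.425 FPM in hindwing (0.184 to 0.666) over 233 bases and 3.11 FPM in forewing (2.37 to 3.84) over 956 bases. The one on nscaf2953, which spans 668094 to 668974, had 0.379 FPM in hindwing (0.138 to 0.620) over 255 bases and 1.77 FPM in forewing (1.24 to 2.31) over 881 bases. Per kilobase both stayed lower in hindwing, with 1.82 in hindwing and 3.25 in forewing on nscaf1987, and 1.49 in hindwing and 2.01 in forewing on nscaf2953.

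By FPM, the difference of an intronic locus between the wing buds was hardly related to that of its host. Across the 910 loci seen with their host in both libraries, the correlation of the log2 ratios was 0.0786 (Spearman 0.138), where the hosts differed little, with quartiles of -0.12 and 0.25. Large FPM ratios of intronic loci went with unlike assembled lengths, as described above. The part of assembled length and of low fragment counts in the weak correlation was not tested. The locus and its host differed from each other by at least 2-fold in 129 cases (14.2%, 12.1 to 16.6%), 88 with the locus raised in hindwing relative to the host and 41 with it lowered. This count of 129 was 36 among loci of like assembled length and 66 with 0.5 FPM added in place of 0.1. Of the 104 loci that were 2-fold different between the wing buds and had their host in both libraries, 87 had a host that differed under 1.5-fold, and 4 had a host whose FPM was 2-fold different in the same direction. These 4 lay on nscaf2901, from 1167940 to 1172145 and from 1173154 to 1175214, and on nscaf3058, from 1778224 to 1779733 and from 2989523 to 2991562. All 4 were higher in hindwing and longer there. By the sum of FPKM midpoints, the host of the locus at 1778224 was still 2-fold higher, with 11.3 in hindwing and 4.56 in forewing. The host on nscaf2901 had 3.47 in hindwing and 3.84 in forewing, and that of the locus at 2989523 had 3.79 in hindwing and 3.45 in forewing, so these hosts were 2-fold different by FPM alone. They were singled out after their values were seen.

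The 5 loci of like length that were higher in forewing were singled out after their values were seen. Of these, 2 lay side by side in intron 7 of 8 of a host on nscaf3099. The first, which spans 488355 to 488988, had 1.90 FPM in hindwing (1.38 to 2.41) and 5.44 FPM in forewing (4.38 to 6.51), and the second, which spans 489056 to 489920, had 1.65 FPM in hindwing (1.15 to 2.16) and 4.44 FPM in forewing (3.52 to 5.35). The host differed in the other direction, with a log2 ratio of FPM of 1.44. Another on nscaf3099, from 2398198 to 2398957, had 2.33 FPM in hindwing (1.77 to 2.89) and 6.48 FPM in forewing (5.32 to 7.64), beside a host ratio of -0.80. The remaining ones were on nscaf2874 from 181461 to 182144, with 2.77 FPM in hindwing and 7.23 FPM in forewing, and on nscaf2943 from 3006060 to 3007238, with 0.597 FPM in hindwing and 1.30 FPM in forewing. Intervals overlapped for the one on nscaf2943 and were apart for the others.

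Of the 7 loci of like length that were higher in hindwing, also looked up after their values were seen, the one on nscaf3058 from 8648764 to 8650409 had the largest ratio. It had 5.13 FPM in hindwing (4.14 to 6.13) and 1.32 FPM in forewing (0.833 to 1.80), a log2 ratio of 1.88, in the sole intron of a host whose own ratio was 0.04. Neighbours on nscaf2993, from 850052 to 851644 and from 851653 to 854986 in 1 first intron, were also both higher in hindwing, with 0.965 and 2.40 FPM in hindwing and 0.376 and 1.05 FPM in forewing. Their host had a log2 ratio of 0.35.

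The ends of intronic loci often differed between the assemblies. In 755 loci with 1 transcript in each library, the stretch shared by both transcripts was a median of 77.2% of the locus, and it reached 80% in 348 of them (46.1%, 42.6 to 49.7%). A library had several transcripts at 205 loci. Within 20 bases above the limit of 300 bases there were 71 loci, with medians of 0.425 FPM in hindwing and 0.497 FPM in forewing. The 81 loci within 20 bases below it, which the rule left out, had medians of 0.425 FPM in hindwing and 0.612 FPM in forewing.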

How the data were processed

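RNA from hindwing and forewing buds, 1 library each, had been reverse transcribed from random hexamers without strand marking, and 11 PCR cycles followed. As the study's methods state, reads were trimmed, aligned by TopHat and assembled by Cufflinks (2.1.1 per the submitters' processing notes). The deposited assemblies give for each transcript the FPKM and the bounds of its interval, computed by the authors for each library alone. Another deposited column, a score for each isoform, was not used in any result.

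Transcripts were joined into loci, and FPM was the midpoint of the bounds times length divided by 1000, summed over a locus, with its bounds treated alike. The FPKM midpoint of an intronic locus was its FPM per kilobase of assembled transcript. Depth was the number of fragments that made bounds below 30 fragments whole; 96.1% of 11938 hindwing and 95.8% of 8004 forewing bounds were whole within 0.05. With no molecular identifiers, intervals cover counting and assignment error only. First, internal, last and sole introns were classed in the transcript with the most introns.

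Loci were named by position, by fixed rules: the 3 hosts with most loci, the 3 most abundant loci, the 3 most covered introns of at least 1000 bases, the 2 largest ratios in each direction at 1 FPM or more with intervals apart, the 2 highest of those seen in each library alone, and the 3 highest relative to a host of at least 1 FPKM midpoint. Other named loci were chosen after their values were seen. The members and lists were chosen with earlier results of these data known. No gene list or marker was read, because nothing used here pairs the loci with gene names. The code was tested on simulated data. The versions were Python 3.11.15, numpy 2.4.6, scipy 1.17.1, statsmodels 0.14.6 and matplotlib 3.10.9.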

Additional observations from a re-analysis of the deposited data

How the results depend on the processing

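No paired analysis was possible because each wing bud was sequenced as 1 library, and spread between animals is unknown. Under other settings, 44 values of the main results stayed within 1.5 times for a count or within the 95% interval for a share or median, and 20 moved beyond it. Joining on either strand and a minimum of 0.2 FPM left the number of loci at 3462, but neither setting could have changed it. The lowest level was 0.264 FPM in hindwing and 0.309 FPM in forewing, and unspliced transcripts already joined either strand. The 44 values include those at the minimum of 0.2 FPM, which equal the main ones and so show nothing about stability. Introns held with the same ends by both assemblies left 2188 loci, of which 30.9% were seen in both libraries, with a median ratio to the host of 0.132 in hindwing. A least length of 600 bases gave 30.5% seen in both and a hindwing ratio of 0.109. Introns of at most 50000 bases gave 29.2% and 0.124. Leaving out hosts with at least 10 loci, a setting added after seeing the data, gave 31.8%, with ratios of 0.138 in hindwing and 0.161 in forewing. The ratios were 0.125 in hindwing and 0.173 in forewing by deposited FPKM, and 0.295 and 0.329 against the most abundant host transcript with the intron. Joining on either strand gave 0.141 in forewing. At a pseudocount of 0.5 FPM, 48 loci were 2-fold higher in hindwing and 9 in forewing. In settings added after seeing the data, like assembled length left 7 and 5, and level per kilobase gave 21 in hindwing and 25 in forewing, so the lean toward hindwing was not seen per kilobase. The 129 loci 2-fold apart from their host became 66 at 0.5 FPM and 36 at like length, and the correlation with host level became 0.565 in hindwing and 0.522 in forewing against the transcript with the intron. The larger pseudocount shrinks every ratio, and like length tests fewer loci. For the other changes the cause was not tested.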
